A study of Drosophila melanogaster with 8 samples.

Results

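Width-keeping pairs are regions bound by Bicoid (Bcd) on the chromosome arms of Drosophila melanogaster where the Bcd peak called in zelda mutant embryos was at least 0.75 times as long as the Bcd peak called in wild-type embryos. Of 1187 one-to-one pairs on the arms 2L, 2R, 3L, 3R, 4 and X, 518 met this rule, or 43.6% (Wilson 95% interval 40.8 to 46.5). The arms carried 1870 mutant and 2827 wild-type peaks, so the 518 pairs held 27.7% of the mutant and 18.3% of the wild-type arm peaks. A one-to-one pair is a mutant and a wild-type peak that overlap each other by at least 1 bp and overlap no further peak of the other list. A pair was kept when the wild-type peak was shorter than 5000 bp and the 2 summits, the positions of highest signal, lay at most 200 bp apart. The members were thus chosen by the lengths and summit positions of the deposited peaks. The limits on wild-type length and summit distance left 889 pairs, and the length ratio divided them into the 518 width-keeping and 371 narrowed pairs.

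The study used chromatin immunoprecipitation followed by sequencing (ChIP-seq) on embryos collected 1 to 3 h after egg laying. Its 8 samples formed 4 groups of 2 replicates: zelda mutant Bcd ChIP, zelda mutant input, wild-type Bcd ChIP and wild-type input, where input is sheared chromatin taken without antibody. All samples are labelled as embryo, the ChIP antibody is against Bcd, the mutant is labelled only by the gene zelda, and the sources used here do not give its allele. Nothing in the labels says that replicates came from separate collections. The files hold 1 peak list for each genotype, without values for single replicates. The spread between replicates is therefore unknown, and every comparison below describes these lists without a test.

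Bcd is a homeodomain transcription factor whose mRNA is deposited by the mother at the anterior pole. The protein forms a gradient along the egg and activates the genes that pattern the head and thorax. Zelda is a zinc finger protein present throughout the early embryo, which binds many enhancers of the first zygotic genes and is known to make their chromatin accessible to other factors. The comparison asks where Bcd was bound, and over what extent, in zelda mutant embryos. The peak positions are on the genome build dm3. The genes and DNA sequence at these positions were not analysed here.

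With duplicates removed, 10060479 ChIP tags were used for the mutant and 39154546 for wild type, a ratio of 0.257. Depth thus differed together with genotype. In the peak lengths, scores, fold enrichments, tag densities and false discovery rates below, the effects of depth and genotype cannot be told apart. Lengths, summits, fold enrichments, scores and tag numbers all come from the contrast that chose the members, so their values are given as descriptions and support nothing about the choice.

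Although chosen for keeping their width, the members were still mostly a little shorter in the mutant. Their median length was 1413.5 bp in the mutant (interquartile range 1158.5 to 1940.75) and 1598 bp in wild type (1329.25 to 2123). The median length ratio of the members was 0.887, with 0.831 and 0.945 as quartiles. The mutant peak was the longer one in 44 of the 518 members (8.49%), beside 4.55% of all 1187 pairs, and no member had peaks of equal length. In the 371 narrowed pairs the median length was 1266 bp in the mutant and 2517 bp in wild type. Width-keeping and narrowed pairs therefore differed more in their wild-type length than in their mutant length.

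**Figure D1:**
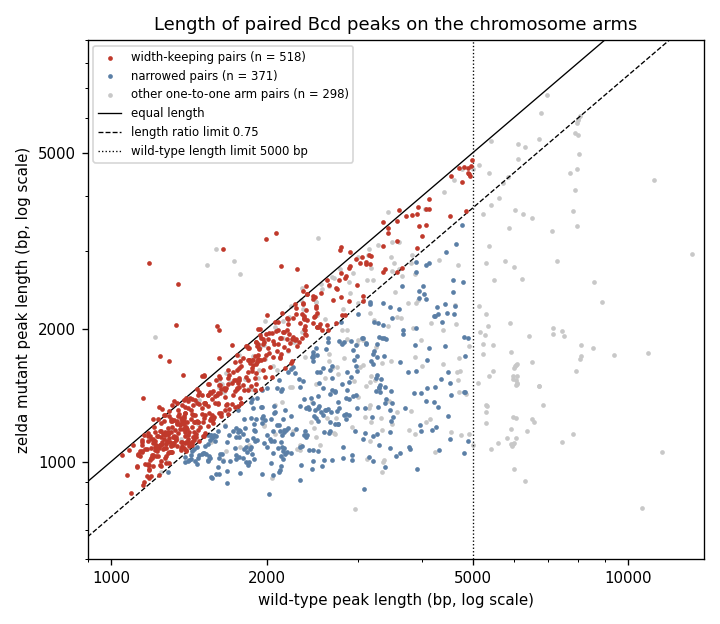
Length of the mutant peak (vertical, bp, log scale) against the length of the wild-type peak (horizontal, bp, log scale) for the 1187 one-to-one arm pairs; each point is 1 pair and the lines mark equal length and the limits of the rule. The 518 width-keeping pairs follow the line of equal length from just below it, while the 371 narrowed pairs lie below the dashed line of the ratio limit, with a median mutant length of 1266 bp.

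The mutant edges of the members lay inside the wild-type edges by similar medians on both sides. The mutant start lay a median of 81 bp inside the wild-type start (interquartile range 38.25 to 144), and the mutant end lay a median of 83.5 bp inside the wild-type end (40 to 139.75). In the narrowed pairs these medians were 427 and 435 bp. Both mutant edges lay inside or on the wild-type edges in 393 members (75.9%), beside 85.2% of all pairs. In 111 members (21.4%) 1 edge lay outside, beside 13.3% of all pairs. Both edges lay outside in 14 members (2.70%), beside 1.52% of all pairs. In 159 members (30.7%), both edges of the mutant peak were within 100 bp of the wild-type edges, beside 14.8% of all pairs. These edges set the lengths that the rule used.

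Bcd summits lay close together at the members, which the summit limit of 200 bp partly sets. The median distance between summits was 32 bp. In 350 of 518 members (67.6%) the summits lay within 50 bp, beside 64.4% of the narrowed and 52.6% of all pairs. They lay within 10 bp in 106 members (20.5%), beside 19.9% of the narrowed and 16.1% of all pairs. In 4 members (0.772%) the summit was the same base, beside 1.62% of the narrowed and 0.842% of all pairs. The mutant summit had the higher coordinate in 273 members and the lower one in 241. Narrowed pairs, which obey the same limit of 200 bp, had a median summit distance of 34 bp. Within the peak, the summit lay at a median of 50.8% of the length in the mutant and 50.6% in wild type.

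**Figure D2:**
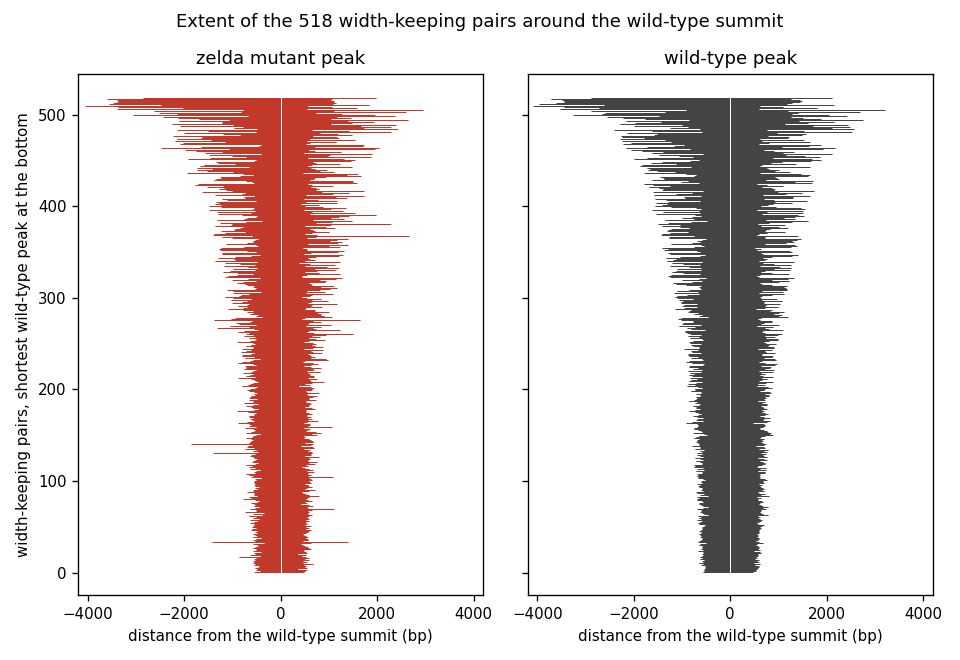
Extent of each of the 518 width-keeping pairs in the mutant list (left) and the wild-type list (right), as distance in bp from the wild-type summit; each line is 1 peak, and pairs are ordered by wild-type length with the shortest at the bottom. The 2 outlines are similar, and single lines that stick out on the left are the mutant peaks longer than their wild-type partner.

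The share of width-keeping pairs was highest among the shortest wild-type peaks. Of the pairs inside the length and summit limits, 224 of 239 were width-keeping where the wild-type peak was 1500 bp or less (93.7%, 89.9 to 96.2). This share was 62.5% (56.1 to 68.5) for wild-type lengths of 1501 to 2000 bp, 49.7% (41.9 to 57.5) for 2001 to 2500 bp, 29.0% (21.0 to 38.5) for 2501 to 3000 bp and 26.4% (20.2 to 33.6) for 3001 to 4999 bp. Called peaks have a lower bound on length, since the shortest mutant arm peak spanned 779 bp and the first percentile of their lengths was 917 bp. A wild-type peak shorter than 1222 bp reaches a ratio of 0.75 with a mutant partner of that first percentile. Below 1222 bp in wild type there were 59 pairs inside the limits, and all 59 were members. A wild-type peak of 1500 bp needs a mutant partner of at least 1125 bp to reach that ratio. Of the 1870 mutant arm peaks, 463 (24.8%) were shorter than 1125 bp. How far the lower bound on length sets the shares by class was not tested. The longest class held 43 members beside 120 narrowed pairs. In that class the fold enrichment, explained below, was higher in the mutant at 11 of the 43 members (25.6%, 14.9 to 40.2) and at 9 of the 120 narrowed pairs (7.50%, 4.00 to 13.6). From the shortest class upwards, the other classes gave 10.3% against 0%, 13.1% against 9.20%, 11.7% against 8.97% and 17.2% against 9.86%. In each of those the intervals overlapped. The longest class includes 7 members of a 2L stretch described below, of which 2 had the higher fold in the mutant. The difference was not tested.

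Fold enrichment, the MACS ratio of ChIP signal at the summit to the local background, was lower in the mutant list at most members. The median fold of the members was 4.425 in the mutant (interquartile range 3.73 to 5.57) and 5.88 in wild type (5.035 to 6.83). The median ratio of mutant to wild-type fold was 0.778 (order-statistic 95% interval 0.758 to 0.794), beside 0.70 (0.667 to 0.716) in the narrowed pairs and 0.728 over all 1187 pairs. The fold was higher in the mutant at 67 of 518 members (12.9%, 10.3 to 16.1), beside 10.3% of all pairs. It was higher in the mutant at 31 of the 371 narrowed pairs (8.36%, 5.95 to 11.6). The difference between these shares was not tested. With an FDR of at most 5% in both lists, 74 members were left, and the share of them with the higher fold in the mutant was 29.7%. That limit itself favours such members. Their median mutant FDR was 4.18% at the 67 members with the higher mutant fold and 9.84% at the other 451. The same share over all pairs at that limit was not computed.

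**Figure D3:**
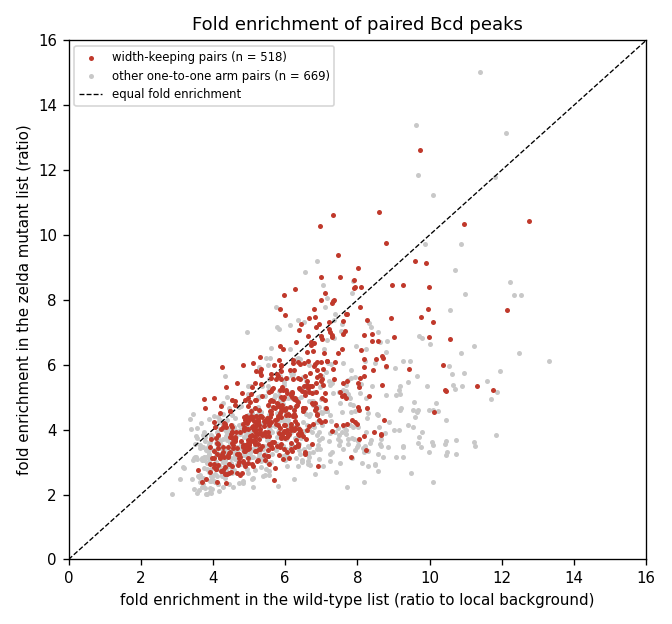
Fold enrichment in the mutant list (vertical) against fold enrichment in the wild-type list (horizontal), each a ratio to local background, for the 518 width-keeping pairs and the other 669 one-to-one arm pairs; each point is 1 pair and the dashed line marks equal fold. Most points lie below the line, and 67 width-keeping pairs lie above it.

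The MACS score, which is −10 times the log10 of the p-value, was higher in the mutant at more than 50% of the members. The median score of the members was 160 in the mutant and 149 in wild type. The mutant score was the higher one in 291 of 518 members (56.2%, 51.9 to 60.4), against 38.9% of all pairs. In the narrowed pairs the median score was 119 in the mutant and 243 in wild type, and the mutant score was the higher one in 92 of 371 (24.8%, 20.7 to 29.4). Within wild-type lengths of 2001 to 2500 bp, where 77 members stand beside 78 narrowed pairs, the median score was 208 in the mutant and 222 in wild type for the members. For the narrowed pairs of that length it was 99.9 in the mutant and 233 in wild type. The interval of the median mutant score ran from 179 to 271 in these members and from 81.5 to 124 in these narrowed pairs. The interval of the median wild-type score ran from 165 to 283 in the members and from 169 to 333 in the narrowed pairs. Within such a class the rule divided the pairs mainly by their mutant length. How far that choice sets the mutant scores was not tested, and scores of the other length classes are not given here.

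Tag density, in RPKM (tags per kb of called peak, scaled to the ChIP library size), had a median of 14.7 in the mutant and 12.2 in wild type at the members. The mutant density was the higher one in 472 of 518 members, against 76.3% of all pairs. The median density ratio was 1.22 (1.19 to 1.24) in the members and 1.11 (1.08 to 1.13) in the narrowed pairs. Density divides by the called length, which the rule used. Among the members, the density ratio and the length ratio had a Spearman correlation of 0.45, and the fold ratio and the length ratio one of 0.25, over 518 pairs that share their libraries. The median fold ratio was 0.714 (0.651 to 0.772) for the 79 members with a length ratio from 0.75 to 0.8 and 0.832 (0.777 to 0.902) for the 44 members of 1 or more.

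Members with a high fold in one list tended to have a high fold in the other. Across the 518 members, which share their libraries, the mutant and wild-type folds had a Spearman correlation of 0.65. It was 0.45 across the 371 narrowed pairs and 0.55 across all 1187 pairs. For the score the values were 0.64 in the members, 0.38 in the narrowed pairs and 0.40 in all pairs. How far the choice by length ratio sets these values was not tested.

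The false discovery rate (FDR) that MACS gives by exchanging ChIP and control was at most 5% in the mutant list for 94 members (18.1%), beside 15.2% of all pairs. In the wild-type list it was at most 5% for 142 members (27.4%), beside 41.5% of all pairs. In both lists it was at most 5% for 74 members (14.3%), beside 12.5% of all pairs. The median FDR of the members was 9.705% in the mutant and 9.03% in wild type.

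The share of width-keeping pairs was higher on X than on the autosomes. On X, 120 of 201 one-to-one pairs were width-keeping, or 59.7% (52.8 to 66.2). On the autosomes this was 398 of 986, or 40.4% (37.3 to 43.5). The single arms gave 40.5% on 2L, 40.0% on 2R, 43.0% on 3L and 38.6% on 3R, and chromosome 4 had 4 members among 9 pairs. The X interval lay above those of 2L, 2R, 3L and 3R. Paired wild-type peaks on X were shorter, with a median of 1775 bp against 2317.5 bp on the autosomes. Within classes of wild-type length, the X and autosome intervals overlapped in every class. The X share was 96.8% against 92.7% at 1500 bp or less, 68.1% against 61.1% at 1501 to 2000 bp, and 66.7% against 47.0% at 2001 to 2500 bp. It was 28.6% against 29.1% at 2501 to 3000 bp and 45.5% against 23.4% at 3001 to 4999 bp, where X held 22 pairs. The part of peak length in the X share was not tested. The division by X and by length class was chosen after the data were seen.

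**Figure D4:**
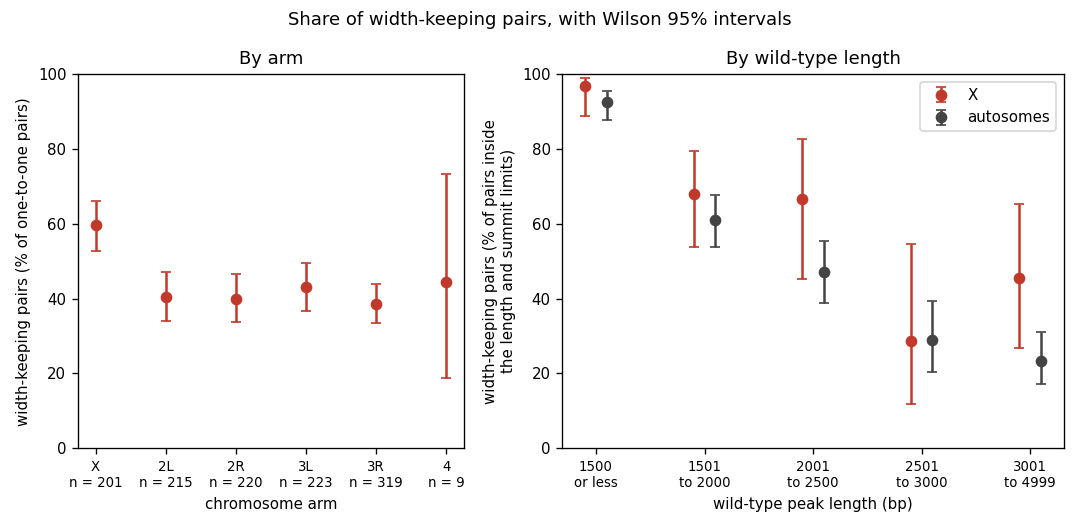
Share of width-keeping pairs in percent with Wilson 95% intervals: on the left, of all one-to-one pairs on each arm, and on the right, of the pairs inside the length and summit limits by wild-type length, for X and for the autosomes. The X point at 59.7% stands above the 4 large autosome arms by its interval. The shares are highest at 1500 bp or less on both X and autosomes.

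On X the members had a median fold of 4.68 in the mutant and 6.065 in wild type, and on the autosomes one of 4.34 in the mutant and 5.835 in wild type. The fold ratio had a median of 0.786 on X (0.753 to 0.817) and 0.774 on the autosomes (0.754 to 0.794), and these intervals overlap. The fold was higher in the mutant at 13 of the 120 X members and at 54 of the 398 autosomal ones.

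The member with the highest mutant fold lay on 3R, from 4517649 to 4521340 in the mutant and from 4516575 to 4521435 in wild type. Its fold was 12.6 in the mutant and 9.73 in wild type, and it held 1037 tags in the mutant (exact Poisson 95% interval 975 to 1102) and 3138 in wild type (3029 to 3250). Its length ratio was 0.760, and the mutant start lay 1074 bp inside the wild-type one while the ends were 95 bp apart. The density was 27.9 RPKM in the mutant and 16.5 RPKM in wild type.

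The second highest mutant fold was found on X, from 8499870 to 8501152 in the mutant and from 8499807 to 8501158 in wild type. Its fold was 10.7 in the mutant and 8.60 in wild type, with 329 tags in the mutant and 803 in wild type, and the summits were 17 bp apart. A member of 3L, from 14021433 to 14022863 in the mutant and from 14021296 to 14022920 in wild type, had a fold of 10.6 in the mutant and 7.33 in wild type. Another of 3L, from 6177522 to 6178681 in the mutant and from 6177500 to 6178678 in wild type, had 10.3 in the mutant and 6.97 in wild type. The borders of this second 3L member were within 22 bp of each other, and it had a score of 393 and an FDR of 3.33% in the mutant, against a score of 76.1 and an FDR of 13.9% in wild type.

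Of the 10 members with the highest mutant fold, 6 had the higher fold in the mutant and 4 lay on X. Among all 518 members, 67 had the higher fold in the mutant and 120 lay on X. Ranking by the mutant fold favours a higher fold in the mutant. The X member from 18197467 to 18199297 in the mutant and from 18197136 to 18199421 in wild type had a fold of 10.4 in the mutant and 12.7 in wild type. It also had the highest wild-type fold and, at 3228, the highest wild-type score of all members. The X member from 8536765 to 8538389 in the mutant and from 8536719 to 8538487 in wild type had 10.35 in the mutant and 10.95 in wild type. These 2 X regions are the members that were among the 10 highest in both lists. The remaining members of the 10 had mutant starts at 26253043 on 3R, 21396853 on 2L, 6938189 on X and 15993413 on 2R, with mutant folds of 9.74, 9.37, 9.21 and 9.14 beside wild-type folds of 8.80, 7.47, 9.60 and 9.89. The 2L member of these had summits 1 bp apart.

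The 10 members with the highest wild-type fold all had the lower fold in the mutant. Ranking by the wild-type fold favours that order, and over all 518 members the fold was not higher in the mutant at 451. The member with the second highest wild-type fold, on X from 7190582 to 7191838 in the mutant and from 7190395 to 7191956 in wild type, had a fold of 7.70 in the mutant and 12.1 in wild type. A 2R member from 15927965 to 15929418 in the mutant and from 15927818 to 15929712 in wild type had a fold of 5.22 in the mutant and 11.8 in wild type. Another of 2R, from 10686279 to 10688317 in the mutant and from 10686017 to 10688630 in wild type, had 5.34 in the mutant and 11.3 in wild type. The length ratios of these 3 were 0.805, 0.767 and 0.78, and their fold ratios were 0.635, 0.444 and 0.472.

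The other members of this group were on 2L with a mutant start at 9448012, on 3L with one at 8680162, and on 3R with starts at 9637138, 17013926 and 25982756. Their folds were 6.80, 5.21, 5.19, 6.0 and 4.53 in the mutant and 10.6, 10.4, 10.45, 10.4 and 10.1 in wild type. The 3R member at 17013926 had the highest length ratio of these 10, with 1190 bp in the mutant and 1286 bp in wild type. The 3R member at 25982756 held 132 tags in the mutant (110 to 157) and 858 in wild type (802 to 917). At these regions, ranked by their wild-type fold, the fold was lower in the mutant while the called width met the rule.

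The highest fold ratios among the members were 1.47 and 1.45, at the 3L regions with mutant starts at 6177522 and 14021433. The next, by their mutant positions, were 1.395 on X from 652658 to 654017, where the fold was 5.93 in the mutant and 4.25 in wild type, and 1.37 on 2L from 15056645 to 15058506, with 8.16 in the mutant and 5.97 in wild type. The fifth was 1.33 on 3L from 19643920 to 19645155, where the fold was 8.33 in the mutant and 6.28 in wild type. Across these 5 the score was 318 to 604 in the mutant and 72.2 to 165 in wild type, and the length ratio was 0.881 to 0.984.

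The lowest fold ratio was 0.406, on 2L from 6531983 to 6532912 in the mutant and from 6531749 to 6532985 in wild type, where the fold was 3.17 in the mutant and 7.81 in wild type. A 2R member from 10194291 to 10196068 in the mutant had a fold of 3.37 there and 8.23 in wild type, with summits 4 bp apart and a length ratio of 0.849. An X member with a mutant peak from 15649996 to 15651243 had 2.87 in the mutant and 6.90 in wild type, and a 2R member with one from 10868341 to 10870394 had 2.44 in the mutant and 5.70 in wild type. The fifth was the 2R region with a mutant start at 15927965, named above. The fold ratios of these 5 were 0.406 to 0.444, and Bcd was called in both genotypes at each. Their FDR was 5.24% to 12.4% in the mutant and 0.31% to 7.59% in wild type. Their mutant scores were 69.5 to 353.

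The 67 members with the higher fold in the mutant were picked by the values compared here, so their values are a description and the higher mutant values follow from that choice. Their median wild-type fold was 5.87, beside 5.88 in the other 451 members, and their median wild-type score was 150, beside 149. In the mutant, their median fold was 6.49 beside 4.23, and their median score 376 beside 148. Their median length ratio was 0.919 beside 0.882. They lay on 2L (10), 2R (15), 3L (17), 3R (12) and X (13).

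The 44 members that were longer in the mutant had a median length of 1997 bp in the mutant and 1615.5 bp in wild type. Of these, 7 also had the higher fold in the mutant. The largest length ratio was 2.38, at X from 12640758 to 12643577 in the mutant and from 12641593 to 12642776 in wild type, where both mutant edges lay outside the wild-type ones. Its fold was 4.23 in the mutant and 4.91 in wild type. The score was 194 with an FDR of 9.62% in the mutant, and 57.8 with an FDR of 16.2% in wild type. On chromosome 4, the member from 1314782 to 1317311 in the mutant and from 1315974 to 1317319 in wild type had a ratio of 1.88 and extended on one side only. There the score was 64.5 with an FDR of 12.6% in the mutant, and 159 with an FDR of 8.58% in wild type. The 3R member with a mutant start at 18864176 had a ratio of 1.84, and the 3L members with mutant starts at 10657268 and 21040036 had ratios of 1.60 and 1.58. At the 3L member starting at 10657268 the summit was the same base in both lists, with a fold of 4.90 in the mutant and 4.89 in wild type, while the mutant end lay 1240 bp beyond the wild-type end.

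Peaks called only in wild type lay near a smaller share of the members than of the narrowed pairs. A wild-type-only peak lay within 10 kb of 155 of 518 members (29.9%, 26.1 to 34.0) and of 162 of 371 narrowed pairs (43.7%, 38.7 to 48.8), beside 35.4% of all pairs. The median distance was 22.7 kb for the members and 15.3 kb for the narrowed pairs. The order was the same in each class of wild-type length. The shares were 25.9% against 46.7% at 1500 bp or less, 33.1% against 48.3% at 1501 to 2000 bp, 33.8% against 42.3% at 2001 to 2500 bp, 31.0% against 38.0% at 2501 to 3000 bp and 32.6% against 44.2% at 3001 to 4999 bp. Within each of these classes the 2 intervals overlapped.

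**Figure D5:**
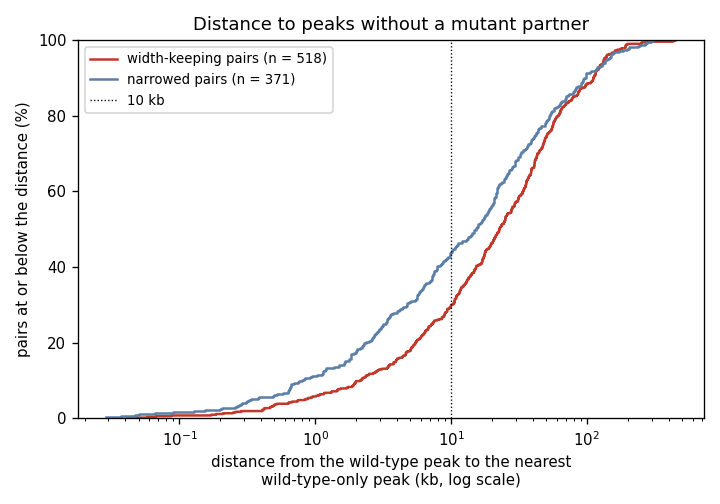
Share of pairs in percent (vertical) whose wild-type peak has a wild-type-only peak at or below a given edge-to-edge distance in kb (horizontal, log scale), for the 518 width-keeping and the 371 narrowed pairs. At the dotted line of 10 kb the curves stand at 29.9% and 43.7%.

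Mutant-only peaks showed the other order. One lay within 10 kb of 89 members (17.2%, 14.2 to 20.7) and of 28 narrowed pairs (7.55%, 5.27 to 10.7), beside 12.9% of all pairs. Another mutant peak of any kind lay within 10 kb of 258 members (49.8%) and of 169 narrowed pairs (45.6%). Another wild-type peak of any kind lay within 10 kb of 294 members (56.8%, 52.5 to 61.0) and of 255 narrowed pairs (68.7%, 63.8 to 73.2). The distance of 10 kb was chosen after the data were seen.

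Of the 518 members, 108 had another member within 10 kb (20.8%), beside 18.9% of all pairs and 17.3% of the narrowed pairs, and the median distance to the next member was 48.7 kb. Where 3 or more successive wild-type arm peaks were all members, with neighbouring summits at most 20 kb apart, they were counted as a run. The arms had 11 such runs with 36 members. X held 120 of the 518 members and 6 of the 11 runs, each of 3 members. Members were also a larger share of the pairs on X, 59.7% against 40.4% on the autosomes. Runs of other pairs are not given here, and whether X held more runs than that share would give was not tested. In the X run from 3666662 to 3675629 all 3 were longer in the mutant. The longest run held 5 members over 41.2 kb on 2R from 8844298 to 8885454. Its members had folds of 3.54 to 8.60 in the mutant and 5.0 to 7.90 in wild type, and 3 of them had the higher fold in the mutant. The member from 8866643 to 8869519 in the mutant and from 8866512 to 8869491 in wild type had a fold of 8.60 in the mutant and 7.90 in wild type, with 964 tags in the mutant and 2690 in wild type. It was chosen after its values were seen, as were the 2L regions that follow.

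A stretch of 2L held many of the members with the longest wild-type peaks. Of the 16 members of at least 4000 bp in wild type, 7 had wild-type starts between 21416381 and 21526022 on 2L. These 7 spanned 4437 to 4666 bp in the mutant and 4541 to 4962 bp in wild type, and held 1144 to 1240 tags in the mutant and 3994 to 4223 in wild type. Their densities were 24.5 to 27.0 RPKM in the mutant and 21.2 to 22.5 RPKM in wild type, beside medians of 14.7 RPKM in the mutant and 12.2 RPKM in wild type over all members. Their folds were 3.03 to 4.56 in the mutant and 4.19 to 4.83 in wild type. Mutant peaks there followed each other at even steps. The longest series with steps of 4500 to 5500 bp held 18 peaks from 21450681 to 21539909, and its neighbouring starts were 4828 to 5243 bp apart, with a median of 5041 bp. The wild-type list had no peak from 21485687 to 21526021, where the mutant list had 8. Whether the stretch is made of repeated sequence was not tested. Without the pairs of this stretch, 511 members remained, and their median fold ratio was 0.777.

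The 3 members just inside the length ratio limit had ratios from 0.751 to 0.752, on 2L, X and 3R with mutant starts at 5092369, 7598881 and 12228963. Their folds were 4.27, 4.17 and 3.16 in the mutant and 5.42, 4.83 and 4.30 in wild type. The 3 pairs just outside had ratios of 0.746, 0.744 and 0.744, with folds of 3.75, 5.64 and 3.25 in the mutant and 6.44, 4.32 and 6.58 in wild type. Summit distances were 199, 196 and 196 bp just inside the summit limit, at mutant starts of 819715 and 17201740 on 3R and 13164956 on 2L, and 202, 207 and 226 bp just outside it. The members just inside the wild-type length limit spanned 4984, 4962 and 4949 bp in wild type, all on 2L with mutant starts at 16283955, 21431606 and 21466085. The next pairs beyond it spanned 5152, 5367 and 6111 bp.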

How the data were processed

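Bcd ChIP-seq peak lists of zelda mutant and wild-type embryos were analysed, 1 deposited list for each genotype, which the labels tie to both of its ChIP replicates. Bowtie2 and the build dm3 are named in the submitters' processing notes, and per the file headers peaks were called with MACS 1.4.2 from 1 ChIP and 1 control file with a p cutoff of 1e-05, at most 1 tag per position, a band width of 300 bp and the larger dataset scaled towards the smaller. The sources used here do not say how replicates were joined. The authors deposited for each peak the raw count of ChIP tags within it, a score (the log10 of the p-value times −10), a fold enrichment (a ratio to the local background) and an FDR in percent. These are the authors' values of each peak. The filtered control held 17035242 tags in the mutant and 22487837 in wild type.

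Positions were taken as 1-based, a summit as the peak start plus its offset minus 1. Distances between peaks were taken edge to edge. Shares have Wilson 95% intervals, medians order-statistic 95% intervals and tags exact Poisson 95% intervals, all for counting error only, since tags are not independent molecules and neighbouring peaks share libraries.

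No sample or replicate values were in the lists, so no test was run. The members, lists and classes were chosen with earlier results of these data known. Named members are the 10 with the highest fold in each list, the 5 with the highest and the 5 with the lowest fold ratio, the 5 with the highest length ratio and the 3 just inside each limit. The code of the pairing was checked on simulated data, where 200 of 200 simulated width-keeping pairs were recovered and 0 of 200 narrowed ones were called. The simulated peaks had no close neighbours and lay clear of the limits of the rule. This check therefore does not measure recovery in the real lists. Gene and motif results that had been planned were left out: the available gene table is of Release 6, and positions were not carried over between builds. Rank percentiles within each list had been planned too and are not compared, since the lists differ in length. Python 3.11.15, numpy 2.4.6, pandas 2.3.3, scipy 1.17.1 and matplotlib 3.10.9 were used.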

Additional observations from a re-analysis of the deposited data

Results flagged for a closer look

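Outside the chromosome arms, on the heterochromatic and unplaced sequences that the comparisons above leave out, 130 of 254 one-to-one pairs met the same limits (51.2%, Wilson 95% interval 45.1 to 57.3), beside 43.6% (40.8 to 46.5) on the arms. They were singled out because no comparison above uses them and not by a test against the arms. Of the 130, 123 lay on the unplaced Uextra sequences. The 130 pairs had a median fold of 4.415 in the mutant and 5.70 in wild type. Their median fold ratio was 0.777, beside 0.778 for the members on the arms. The fold was higher in the mutant at 34 of the 130, a larger share than the 67 of 518 (12.9%) on the arms. This difference was not tested.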

How the results depend on the processing

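The number of members was 230 with a length ratio limit of 0.9, 322 with a score of at least 100 in both lists and 74 with an FDR of at most 5% in both, against 518. Their share of the one-to-one arm pairs, 43.6%, was 55.0% with a reciprocal overlap of 50%, 39.3% with a summit limit of 100 bp, 51.5% with a ratio limit of 0.65, 19.4% with one of 0.9 and 40.4% on the autosomes alone. The median fold ratio, 0.778, was 0.802 with a ratio limit of 0.9, 0.794 with the score minimum and 0.914 with the FDR limit. The median density ratio, 1.22, was 1.296 with a ratio limit of 0.9 and 1.32 with the FDR limit. The share of members with the higher fold in the mutant, 12.9%, was 18.3% with a ratio limit of 0.9 and 29.7% with the FDR limit. The cause was not tested. Of the 50 values recomputed for these 5 results, the other 35 stayed within the error of the value reported or, for the number of members, within 1.5 times of it, and no ratio crossed 1. The autosomes alone and the lists without the 2L stretch are alternatives added after seeing the data. The gene and motif alternatives were not run. No paired analysis was possible because each genotype has 1 list and no values per replicate, and for the same reason no replicate could be left out. The mutant ChIP was the shallower one, and its part in which weak peaks were called was not tested.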
